A study of Mus musculus with 24 samples.

Results

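The 10 genes described here mark or drive the zone of Wnt signalling around the central vein of the liver lobule and were followed in whole mouse liver. They are Glul, Axin2, Lgr5, Rnf43, Znrf3, Tbx3, Slc1a2, Rhbg, Wnt2 and Rspo3. They were taken by name, by a rule that uses no measured value but was set with earlier results of these data known, and all 10 were found once among the 56205 Ensembl genes of the count table. Total RNA came from livers of C57BL/6J mice kept for 20 weeks on a diet high in fat that contained palm oil, fructose and cholesterol (labelled FFD, here the high-fat diet) or on its control diet, and each diet has 12 libraries. No allele or drug was added to either group. Mice of both sexes were used, and the design text gives 6 mice per diet and sex, but the labels give no sex for any single library. The libraries fall into 2 sets of 12, with 6 libraries of each diet in each set: replicates 1 to 6 had 2664 to 6285 counts of Xist and 0 of the Y-linked gene Ddx3y, and replicates 7 to 12 had at most 3 counts of Xist and 448 to 1016 of Ddx3y. By these counts replicates 1 to 6 read as female and replicates 7 to 12 as male, which is taken from expression and not from the labels. The sets are called below the libraries with Xist above or below 1000 counts. For the 10 genes the diets are compared over all 24 libraries and within each set. Most other genes are given over all 24 libraries only.

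The liver lobule is laid out along the blood flow from the portal triad to the central vein. Endothelial cells of the central vein and neighbouring sinusoids secrete Wnt ligands such as Wnt2 and the R-spondin Rspo3, which raise beta-catenin signalling in the hepatocytes next to the vein. The receptor Lgr5 binds R-spondins, and the ubiquitin ligases Rnf43 and Znrf3 remove Wnt receptors from the cell surface unless R-spondin holds them back. Axin2, a scaffold of the complex that degrades beta-catenin, is itself a general target of the pathway. Glul (glutamine synthetase), Slc1a2 (the glutamate transporter GLT-1), Rhbg (an ammonium transporter) and the transcription factor Tbx3 are made in the hepatocytes nearest to the central vein, where glutamate and ammonium are turned into glutamine. Periportal hepatocytes carry urea synthesis and gluconeogenesis instead.

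The 250 bases upstream of the start are shown for Glul and Slc1a2, whose levels are compared below, and for Axin2, the general pathway target. RefSeq (GRCm38.p6) gave such windows for 5 of the 10 genes. The letters searched were CTTTGA on either strand, the core to which TCF/LEF factors bind, and matches are in capitals.

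Glul, chr1:153899679-153899928, plus strand: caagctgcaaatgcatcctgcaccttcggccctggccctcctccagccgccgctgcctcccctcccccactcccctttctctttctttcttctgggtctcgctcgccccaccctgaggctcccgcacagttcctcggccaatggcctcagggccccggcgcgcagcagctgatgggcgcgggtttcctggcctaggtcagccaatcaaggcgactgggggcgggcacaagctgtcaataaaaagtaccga
Slc1a2, chr2:102706188-102706437, plus strand: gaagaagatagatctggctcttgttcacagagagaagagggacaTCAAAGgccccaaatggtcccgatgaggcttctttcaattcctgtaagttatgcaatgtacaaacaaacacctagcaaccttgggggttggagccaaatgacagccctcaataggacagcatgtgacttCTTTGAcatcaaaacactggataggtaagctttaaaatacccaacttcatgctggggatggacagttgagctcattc
Axin2, chr11:108920099-108920348, plus strand: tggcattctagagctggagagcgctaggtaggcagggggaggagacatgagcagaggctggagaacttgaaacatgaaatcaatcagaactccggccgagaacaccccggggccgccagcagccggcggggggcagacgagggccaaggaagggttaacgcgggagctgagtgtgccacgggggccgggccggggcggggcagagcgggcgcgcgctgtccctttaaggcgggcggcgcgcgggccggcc

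The Slc1a2 window holds the motif at 77 to 72 bases before the start on the plus strand and at 206 to 201 bases before it on the minus strand. The windows of Glul, Axin2, Rnf43 and Wnt2 hold no match in these bases. Of the 32851 promoter windows of the same length, 13.8% hold at least 1 match, so a match is common and is given here as a description only. The Glul and Axin2 windows lie outside the GENCODE M21 gene models, within 15 bases of their first base, whereas the Slc1a2 window precedes a start 47779 bases inside the gene model, and 29 of its bases lie in an exon of another transcript. In GENCODE M21 on the same build, Glul spans chr1:153899944-153909723 (plus strand), Slc1a2 chr2:102658659-102790784 (plus), Rhbg chr3:88242874-88254709 (minus), Tbx3 chr5:119670669-119684724 (plus), Axin2 chr11:108920349-108950783 (plus) and Lgr5 chr10:115450311-115587780 (minus). Rnf43 spans chr11:87662722-87735539 (plus), Znrf3 chr11:5276324-5444847 (minus), Wnt2 chr6:17988940-18030585 (minus) and Rspo3 chr10:29452416-29535867 (minus). Values are sums over all exons of a gene.

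Depth ranged from 14468418 to 22112552 counts per library, so that 3 counts equal 0.118 to 0.305 CPM, the depth-scaled count unit, here with edgeR's TMM factors. All 10 genes passed the filter for testing, which asked for at least 1 count in at least 12 libraries and was met by 17913 genes. Of the libraries, 2 stood apart in scaling, high-fat diet replicate 9 with a TMM factor of 1.34 and control diet replicate 10 with 0.679. Markers of several cell types differed between the diets. The summed level of 11 hepatocyte markers was 46154 to 104787 CPM in high-fat and 91699 to 144929 CPM in control libraries, and 7 of the 11 were called lower, among them Alb (log2 fold change −0.72 ± 0.18 SE) and Tat (−1.33 ± 0.27 SE). Of 12 stellate cell and fibroblast markers 7 were called higher (Col1a1 by 3.12 ± 0.42 SE), as were 5 of 7 tested cholangiocyte markers (Spp1 by 2.62 ± 0.42 SE) and 7 of 12 macrophage and leukocyte markers (Trem2 by 3.47 ± 0.35 SE), all log2 fold changes. In the same order, 3, 0 and 4 markers were called higher with Xist above 1000 counts, and 7, 5 and 8 with Xist below. No marker of these lists was at 0 in all libraries. The part of these markers in the values below was not tested, apart from the scaling to hepatocyte markers given further on. In whole liver, fewer cells of a type and less RNA per cell cannot be told apart.

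Per length of exon, the order of mean levels on the control diet was Glul at 366.3 ± 53.4 CPM per kilobase (SD, n = 12), Slc1a2 at 15.5 ± 1.91, Rhbg at 6.80 ± 3.06, Tbx3 at 6.61 ± 2.69, Rnf43 at 4.69 ± 1.19, Wnt2 at 1.79 ± 0.736, Axin2 at 1.67 ± 0.481, Znrf3 at 1.59 ± 0.416, Rspo3 at 0.988 ± 0.208 and Lgr5 at 0.467 ± 0.228 CPM per kilobase. Glul and Slc1a2 each stood clear of the next gene by more than their SDs. Rhbg, Tbx3 and Rnf43 were within an SD of their neighbour, and so were Wnt2, Axin2 and Znrf3. Glul, Slc1a2, Rhbg and Tbx3 had the highest levels per length. Lgr5, Wnt2 and Rspo3 rested on 17 to 227 counts per library.

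**Figure D1:**
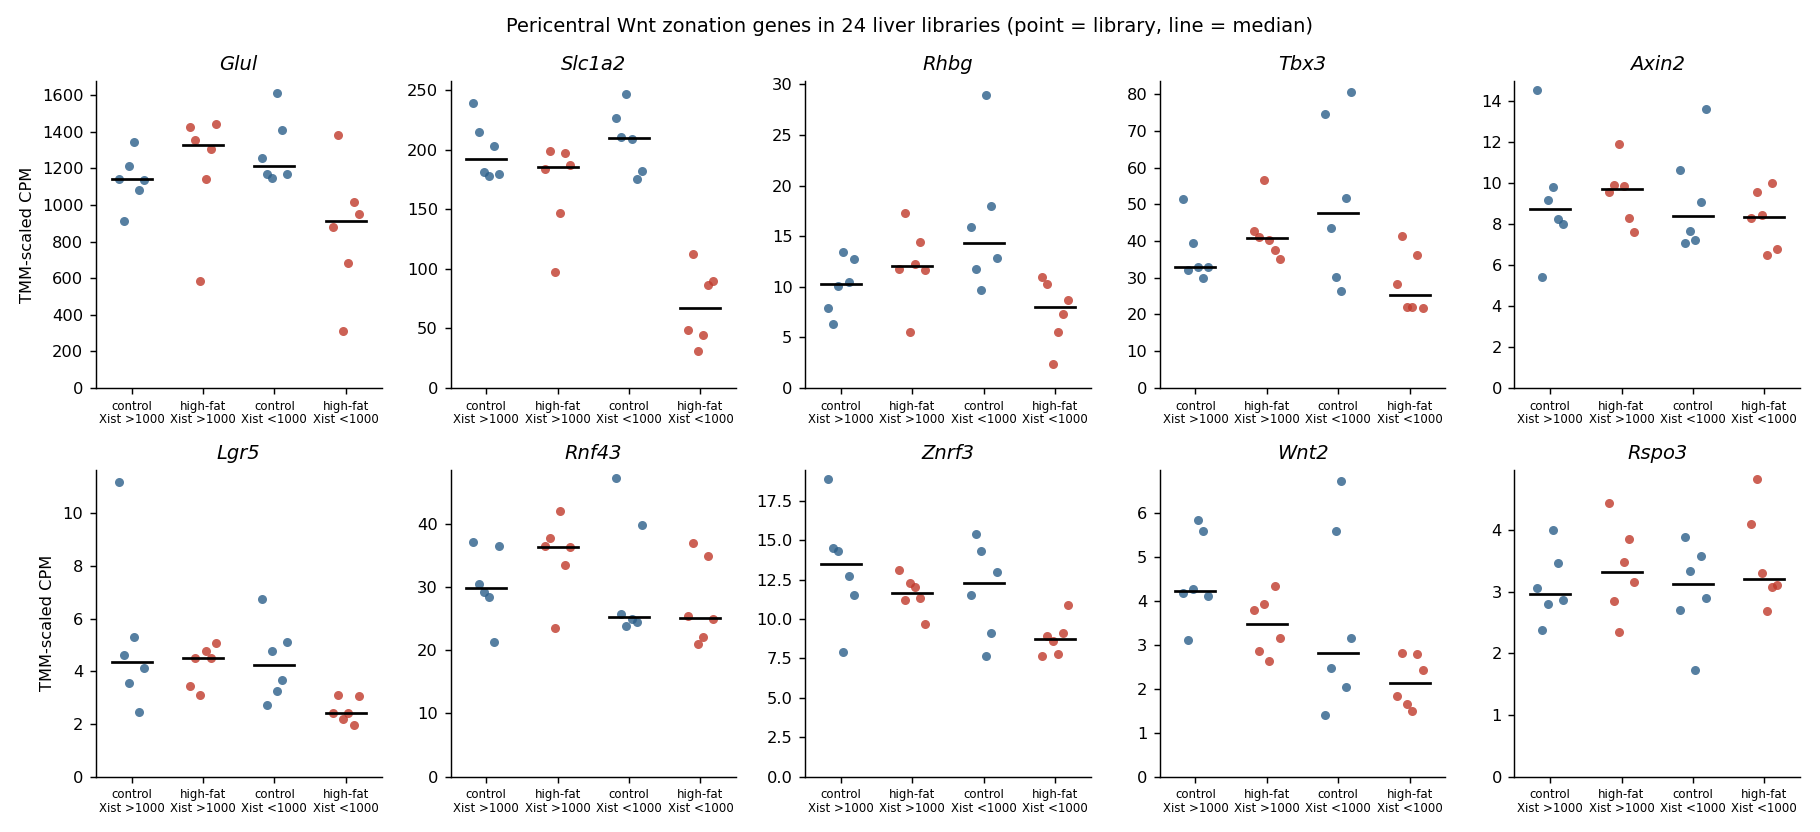
TMM-scaled CPM (y axes, linear and starting at 0) of the 10 genes in each of the 24 libraries, split on the x axes by diet and by Xist counts above or below 1000. Each point is a library and each line the median of 6, and the 6 high-fat libraries with Xist below 1000 counts lie below all 6 control libraries of that set only for Slc1a2.

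Whether the high-fat diet changed the pericentral Wnt genes was tested over all 24 libraries with edgeR's quasi-likelihood test. None of the 10 genes was called at an adjusted p (Benjamini-Hochberg over 17913 genes) of at most 0.01 with an absolute log2 fold change over 0.5. By the same rule 18.2% of all genes tested were called, 13.2% higher and 4.99% lower. At an unadjusted p under 0.05, 4 of the 10 genes were lower, beside 47.8% of all genes in either direction, and DESeq2 and limma-voom each called 1 of them, Slc1a2, lower. DESeq2 called 20.2% of all genes, 5.44% lower. None of the 10 genes was free of overlap between all libraries of the diets, and 1.89% of all genes were. The median log2 fold change of the 10 was −0.31 and that of all genes tested −0.03, and 8 of the 10 values were below 0. With library totals alone both medians moved up, to −0.04 for the 10 genes and 0.26 for all, and 21.4% of all genes were called higher and 1.26% lower.

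Of Glul, Slc1a2, Rhbg and Tbx3, Slc1a2 had the largest difference between the diets. It lay between 30.6 and 198.9 CPM (median 105.0) on the high-fat diet (n = 12) and between 175.0 and 246.7 CPM (median 205.9) on the control diet (n = 12). The ranges overlap, but 8 of the 12 high-fat libraries were below the lowest control library. The log2 fold change was −0.78 ± 0.24 (SE), with an adjusted p of 0.0107 by edgeR, just short of the threshold. The same test called it with the library set as a covariate (−0.92, adjusted p = 0.00116) and with the replicate number as a block (−0.98, adjusted p = 0.00699). The permutation test of mean log2(CPM + 1) gave p = 0.00044 (two-sided, adjusted p = 0.0044 over the 10 genes tested this way). Leaving out high-fat diet replicate 1, 2, 5 or 6 took the adjusted p under the threshold, at 0.00502 to 0.00664 with log2 fold changes of −0.87 to −0.85, while no other single library did. The spread of Slc1a2 was also wider on the high-fat diet, with a coefficient of variation of 52.6% against 12.3% on the control diet. These values join both library sets. Within the sets it was 23.5% against 12.4% with Xist above 1000 counts and 46.5% against 12.9% with Xist below.

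Glul, the enzyme that makes glutamine, ranged from 310.8 to 1443 CPM (median 1081) in high-fat libraries and from 910.9 to 1613 CPM (median 1170) on the control diet. High-fat diet replicates 3, 7, 9 and 10 were below every control library, at 583.9, 880, 310.8 and 685 CPM, and the other 8 lay within the control range. The difference did not pass the test, at a log2 fold change of −0.23 ± 0.18 (SE, edgeR adjusted p = 0.324), and −0.14 without high-fat diet replicate 9. Its coefficient of variation was 35.6% in high-fat and 14.6% in control libraries. Within the sets it was 26.9% against 12.6% with Xist above 1000 counts and 41.0% against 14.2% with Xist below.

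Rhbg, which carries ammonium across the membrane, ranged from 2.37 to 17.3 CPM (median 10.6) in high-fat libraries and from 6.29 to 29.0 CPM (median 12.3) on the control diet, and Tbx3 from 21.7 to 56.5 CPM (median 36.9) and from 26.3 to 80.6 CPM (median 36.3). Both pairs of ranges overlap widely. Neither gene passed the test over all libraries, with log2 fold changes of −0.42 ± 0.25 (SE) and −0.31 ± 0.19 (SE) and edgeR adjusted p-values of 0.185 and 0.2. Rhbg was at −0.26 without control diet replicate 10, and Tbx3 at −0.19 without control diet replicate 12.

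Axin2, the general readout of the pathway, had similar ranges on both diets, 6.47 to 11.9 CPM (median 8.98) on the high-fat diet and 5.40 to 14.5 CPM (median 8.64) on the control diet. Every high-fat library lay inside the control range. The log2 fold change was −0.05 ± 0.13 (SE, edgeR adjusted p = 0.79).

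None of the surface regulators passed the test. Rnf43 (21 to 42.1 CPM, median 34.3, against 21.4 to 47.3 CPM, median 28.9) showed a log2 fold change of 0.02 ± 0.14 (SE). Its relative Znrf3 (7.63 to 13.1 CPM, median 10.3, against 7.64 to 18.9 CPM, median 12.8) was at −0.30 ± 0.13 (SE, edgeR adjusted p = 0.0664). Lgr5, the R-spondin receptor, had 1.95 to 5.06 CPM (median 3.09) against 2.47 to 11.2 CPM (median 4.36), a log2 fold change of −0.51 ± 0.22 (SE, edgeR adjusted p = 0.0608). Groups overlapped for all 3 genes, and the highest values of Lgr5 and Znrf3 were both in control diet replicate 1, without which Lgr5 was at −0.32.

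The secreted factors had values on opposite sides of 0. Wnt2 ranged from 1.5 to 4.35 CPM (median 2.80) in high-fat libraries and from 1.41 to 6.72 CPM (median 4.14) on the control diet, with a log2 fold change of −0.52 ± 0.22 (SE, edgeR adjusted p = 0.0645). Rspo3 ranged from 2.35 to 4.82 CPM (median 3.23) and from 1.73 to 3.99 CPM (median 2.97), with a log2 fold change of 0.16 ± 0.13 (SE, edgeR adjusted p = 0.348). Both genes overlapped between the diets and neither passed. The summed level of 10 central vein endothelial markers, which include both genes, was 131.3 to 211.6 CPM in high-fat and 77.1 to 146.3 CPM in control libraries. Most of that sum was Ltbp4 (means of 87.4 and 74.7 CPM) and Fabp4 (31.4 and 8.06 CPM). Of the 10 markers 2, Fabp4 and Vwf, were called, beside 18.2% of all genes tested.

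The diets were then compared within each set of libraries. Among the 12 libraries with Xist below 1000 counts, Slc1a2 was 30.6 to 112.7 CPM (median 67.3) in the 6 high-fat libraries and 175.0 to 246.7 CPM (median 209.8) in the 6 control libraries, with no overlap. Its log2 fold change there was −1.59 ± 0.26 (SE, edgeR adjusted p = 0.000311), and the exact permutation test gave p = 0.00216, the smallest that 6 against 6 allows (two-sided, adjusted p = 0.0432 over 20 such tests). In this set 22.2% of all genes tested were called, 14.3% higher and 7.89% lower, and 9.66% were lower without overlap, and Slc1a2 was the 1 of the 10 genes called and the 1 without overlap. Among the 12 libraries with Xist above 1000 counts, Slc1a2 was 97.3 to 198.9 CPM (median 185.5) against 177.4 to 239.2 CPM (median 192.1), a log2 fold change of −0.23 ± 0.15 (SE, edgeR adjusted p = 0.345). There none of the 10 genes was called, none had an unadjusted p under 0.05 by edgeR, and 3.8% of all genes tested were called, 2.91% higher and 0.896% lower. None of the 10 was free of overlap there, beside 5.9% of all genes, 2.39% being lower on the high-fat diet. The ranges for Slc1a2 overlapped, and high-fat diet replicate 3 was the lowest of that set.

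**Figure D2:**
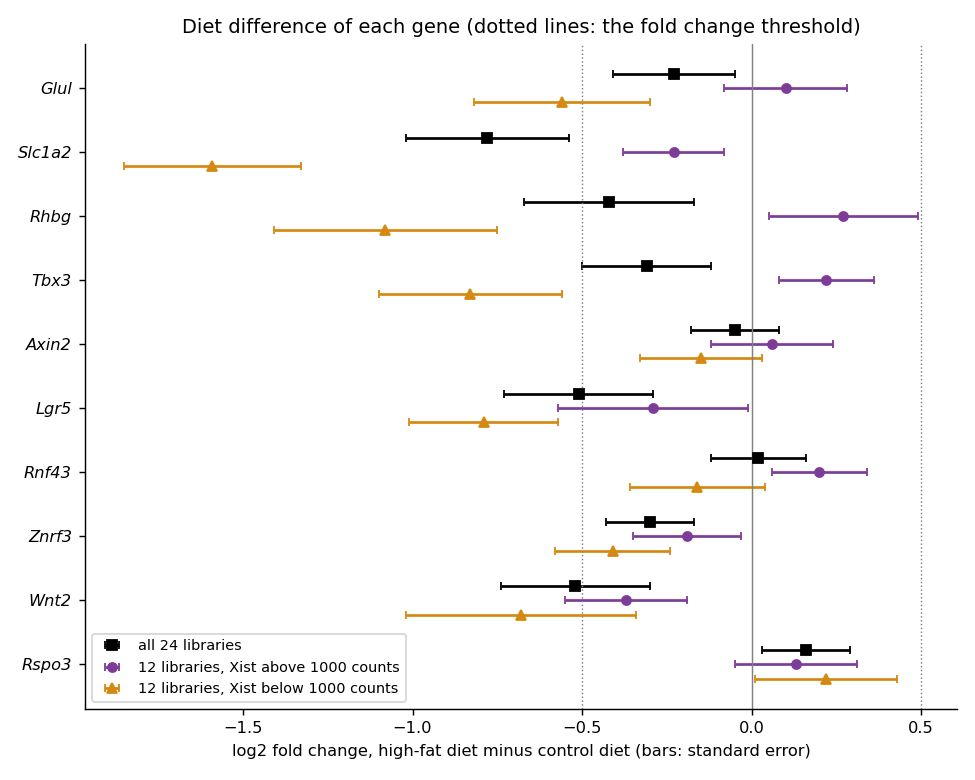
Log2 fold change of each gene, high-fat diet minus control diet (x axis), with bars of 1 standard error, over all 24 libraries and within the 12 libraries of each Xist set. For Slc1a2 the value is −1.59 with Xist below 1000 counts and −0.23 with Xist above, while for Axin2 the values are −0.15 and 0.06.

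The difference between the sets was tested as an interaction of diet and set over all 24 libraries. For Slc1a2 it was −1.36 ± 0.32 (SE, set below minus set above, edgeR adjusted p = 0.00695), and it was the 1 of the 10 genes called, beside 4.04% of all genes tested. The call was lost in the separate fits without high-fat diet replicate 1, 2, 5, 6, 7 or 10 or control diet replicate 3, 4, 5, 6, 7, 8 or 9, with interactions of −1.37 to −1.28 and adjusted p-values of 0.0112 to 0.0146, with library totals alone (−1.04, adjusted p = 0.021) and with scaling to the hepatocyte markers (−1.03, adjusted p = 0.035). Tbx3 (−1.05 ± 0.32 SE, adjusted p = 0.0359) and Rhbg (−1.36 ± 0.42 SE, adjusted p = 0.0384) had values of like size that did not pass, although Tbx3 passed without control diet replicate 10 (−1.18, adjusted p = 0.0099). The interaction was below 0 for 9 of the 10 genes and 0.08 ± 0.27 (SE) for Rspo3.

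The other genes missed the threshold within both sets. With Xist below 1000 counts, Rhbg was 2.37 to 11 CPM (median 8.02) on the high-fat diet and 9.67 to 29.0 CPM (median 14.4) on the control diet, at a log2 fold change of −1.08 ± 0.33 (SE, edgeR adjusted p = 0.0172), and without high-fat diet replicate 9 and control diet replicate 10 it was −0.66 (adjusted p = 0.0146). Tbx3 in this set was 21.7 to 41.4 CPM (median 25.2) against 26.3 to 80.6 CPM (median 47.7), at −0.83 ± 0.27 (SE, adjusted p = 0.0267). Lgr5 was 1.95 to 3.09 CPM (median 2.41) against 2.71 to 6.76 CPM (median 4.23), at −0.79 ± 0.22 (SE, adjusted p = 0.0125). The groups overlapped for these 3 genes. Glul, at 310.8 to 1382 CPM (median 915.0) against 1146 to 1613 CPM (median 1214), had a log2 fold change of −0.56 ± 0.26 (SE, adjusted p = 0.101). Wnt2 (−0.68 ± 0.34 SE), Znrf3 (−0.41 ± 0.17 SE), Rnf43 (−0.16 ± 0.20 SE), Axin2 (−0.15 ± 0.18 SE) and Rspo3 (0.22 ± 0.21 SE) had adjusted p-values of 0.0677 or more. The median of the 10 genes was −0.62 in this set and 0.08 in the set with Xist above 1000 counts, beside −0.03 and 0.01 for all genes tested.

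Another scaling moved the median of all genes. With libraries scaled to the geometric mean of the 11 hepatocyte markers, the median log2 fold change of all genes was 0.58 over all libraries, 0.74 with Xist below 1000 counts and 0.42 with Xist above, and that of the 10 genes was 0.29, 0.13 and 0.50. Relative to the hepatocyte markers, Slc1a2 in the set with Xist below 1000 counts remained below 0, at −0.82 ± 0.26 (SE, edgeR adjusted p = 0.0115), which is no longer called, whereas Axin2, Rnf43 and Rspo3 were called higher over all libraries, at 0.57, 0.64 and 0.78, beside 45.2% of all genes tested (45.8% called in all, 0.62% lower). With library totals alone Slc1a2 in that set was at −1.16 (adjusted p = 0.00147) and was called. Without high-fat diet replicate 9 and control diet replicate 10 it was at −1.44 (adjusted p = 0.00015).

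On the control diet alone, no gene of the 10 differed between the sets by edgeR (lowest adjusted p 0.17, for Rhbg), nor by DESeq2, while 5.74% of all genes tested did. At an unadjusted p under 0.05 there were 2, Tbx3 and Rhbg, beside 23.3% of all genes. Rhbg was 0.67 ± 0.30 (SE, log2, set below minus set above) and Tbx3 0.49 ± 0.23 (SE). Slc1a2 differed by 0.07 ± 0.22 (SE), with control medians of 192.1 and 209.8 CPM.

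Among the libraries of a group, Rhbg followed Glul. After the mean of each of the 4 groups of diet and set was subtracted, Pearson's r of log2(CPM + 1) with Glul was 0.85 for Rhbg over 24 libraries (permutation p = 5e-05, adjusted p = 0.0009 over 18 values) and Spearman's rho was 0.73 (permutation p = 0.00031, adjusted p = 0.00279). Without high-fat diet replicates 9 and 3, the 2 libraries farthest from the median of Glul, r was 0.67 (permutation p = 0.00107). It was 0.79 and 0.97 in the 2 control groups and 0.88 and 0.93 in the 2 high-fat groups, with 6 libraries each.

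For Slc1a2 the relation with Glul was less even. Its pooled r was 0.80 (permutation p = 0.00123, adjusted p = 0.00738) with a rho of 0.57 (permutation p = 0.0174, adjusted p = 0.0626). The pooled r was 0.52 (permutation p = 0.105) without the same 2 libraries, so the pooled value depends on them. Whether the relation among the high-fat libraries alone does was not tested. Within the groups r was 0.96 and 0.90 for the high-fat and −0.54 and −0.29 for the control libraries, with 6 libraries each, and the difference between the diets was not tested. High-fat diet replicates 3, 9 and 10 were low for Glul, Slc1a2 and Rhbg alike. The other 7 genes had pooled r values with Glul between −0.19 and 0.47 and adjusted permutation p-values of 0.0626 or more, and for Axin2 r was −0.01.

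**Figure D3:**
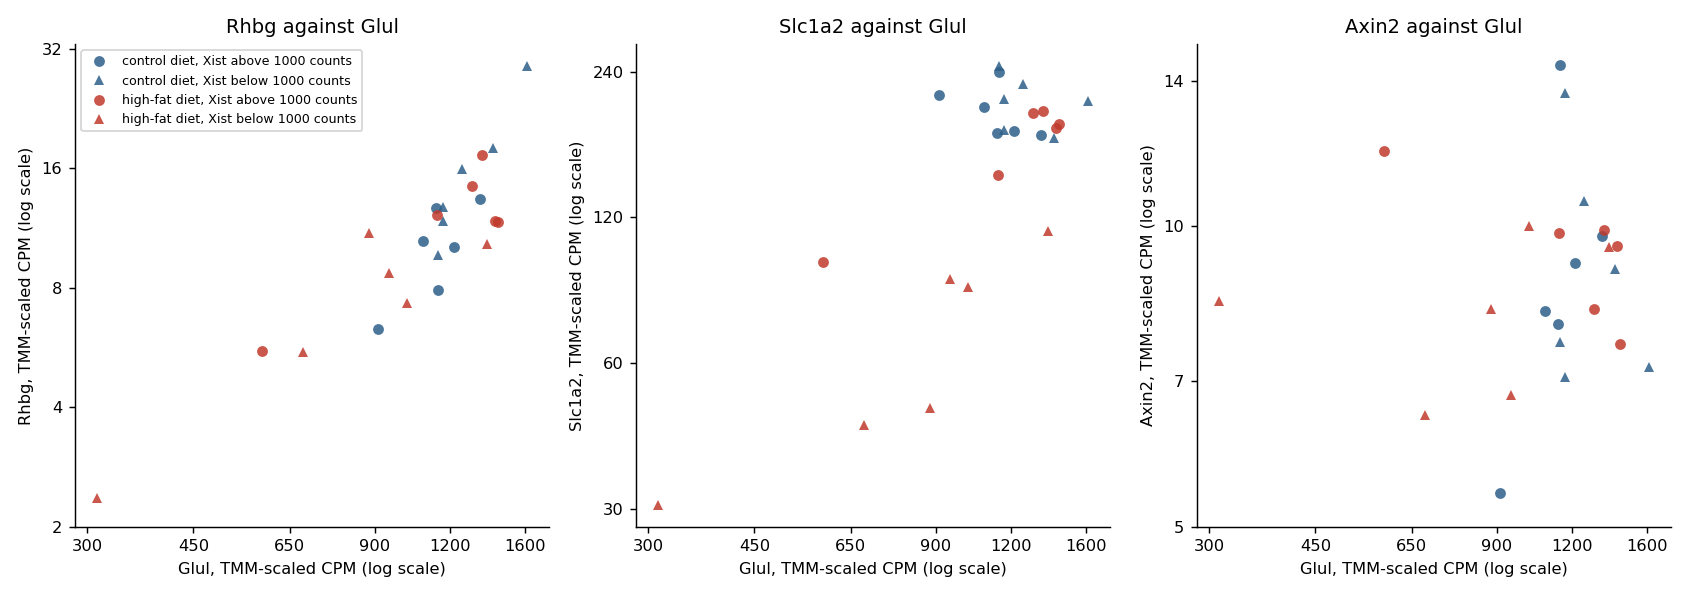
TMM-scaled CPM of Rhbg, Slc1a2 and Axin2 (y axes) against Glul (x axes), on log scales, with a point for each of the 24 libraries, colour for the diet and shape for the Xist set. Rhbg rises with Glul in all 4 groups, Slc1a2 does so among the high-fat libraries while the control libraries stay between 175.0 and 246.7 CPM, and Axin2 shows no common slope (r = −0.01).

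Among 11173 genes with a mean of at least 50 counts, the 3 whose levels were most like those of Glul over the 24 libraries, by Pearson's r after the group means were subtracted, were Chn2 (0.91), Galm (0.87) and Rhbg (0.85). For Axin2 they were Tbx3 (0.78), Arhgef19 (0.74) and Siah2 (0.68), and for Rspo3 Gbp6 (0.75), Cmpk2 and Tbc1d32 (both 0.74). These r values share libraries and depth and are descriptions.

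The rest of the pericentral programme was read from 20 further hepatocyte genes of the zone, among them cytochrome P450 enzymes. Over all 24 libraries 1 of the 20 was called higher and none lower by edgeR, and DESeq2 and limma-voom each called 1 lower. At an unadjusted p under 0.05 by edgeR, 9 were lower and 2 higher, beside 47.8% of all genes in either direction. The same edgeR test called 5 lower with the library set as a covariate and 2 with the replicate block. The median log2 fold change was −0.38. The gene that rose was Gstm3, a glutathione transferase, from 32.7 ± 12.9 to 234.0 ± 123.6 CPM (SD, n = 12 each), a log2 fold change of 2.84 ± 0.31 (SE). With Xist below 1000 counts, 13 of the 20 were called lower and 1 higher at a median of −0.79, and with Xist above, none was called lower (2 at an unadjusted p under 0.05) and 2 higher at a median of 0.06. Of all genes tested, 7.89% were called lower with Xist below and 0.896% with Xist above. The 13 became 7 with library totals alone and 5 with scaling to the hepatocyte markers. The interaction was called for 9 of the 20, of which Gstm3 had a value above 0, beside calls for 4.04% of all genes tested. Cyp1a2, which oxidises caffeine, was at −1.29 in the set below (adjusted p = 5.2e-05) and 0.21 in the set above (adjusted p = 0.349), with an interaction of −1.51 (adjusted p = 0.00018). Oat, the ornithine aminotransferase also known from the zone of Glul, was at −1.76 (adjusted p = 0.000508) and 0.09 (adjusted p = 0.824), with an interaction of −1.85 (adjusted p = 0.00347). These 2 genes were named after their values were seen. Cyp2c genes of the list are near-identical copies whose reads the counting could have split, so their single values are uncertain.

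Periportal genes gave more calls over all libraries. Of 20 periportal hepatocyte genes, 11 were called lower over all libraries, beside 4.99% of all genes tested, and 1, Apoc2, higher, with a median log2 fold change of −0.64. The 11 became 7 with library totals alone and 2 with scaling to the hepatocyte markers. Cps1 and Asl, enzymes of the urea cycle, were at −0.99 ± 0.20 and −1.07 ± 0.19 (SE, edgeR adjusted p = 0.000376 and 8.16e-05), the gluconeogenic enzyme Pck1 was at −1.12 ± 0.21 (SE, adjusted p = 0.000165) and Etnppl at −1.05 ± 0.18 (SE, adjusted p = 7.87e-05). The call of Apoc2 was lost without high-fat diet replicate 7, 8, 10, 11 or 12 or control diet replicate 1, 2, 3, 5, 7, 8, 9 or 12 (adjusted p up to 0.0153). Of the 20, 12 were called lower at a median of −0.93 with Xist below 1000 counts, and 3 at a median of −0.53 with Xist above. The interaction was called for 4 of the 20. The summed hepatocyte markers moved in both sets, at 76856 to 104787 CPM against 106182 to 144929 CPM with Xist above and at 46154 to 56126 against 91699 to 113195 CPM with Xist below, and their part in these values was not tested beyond the scaling given above.

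**Figure D4:**
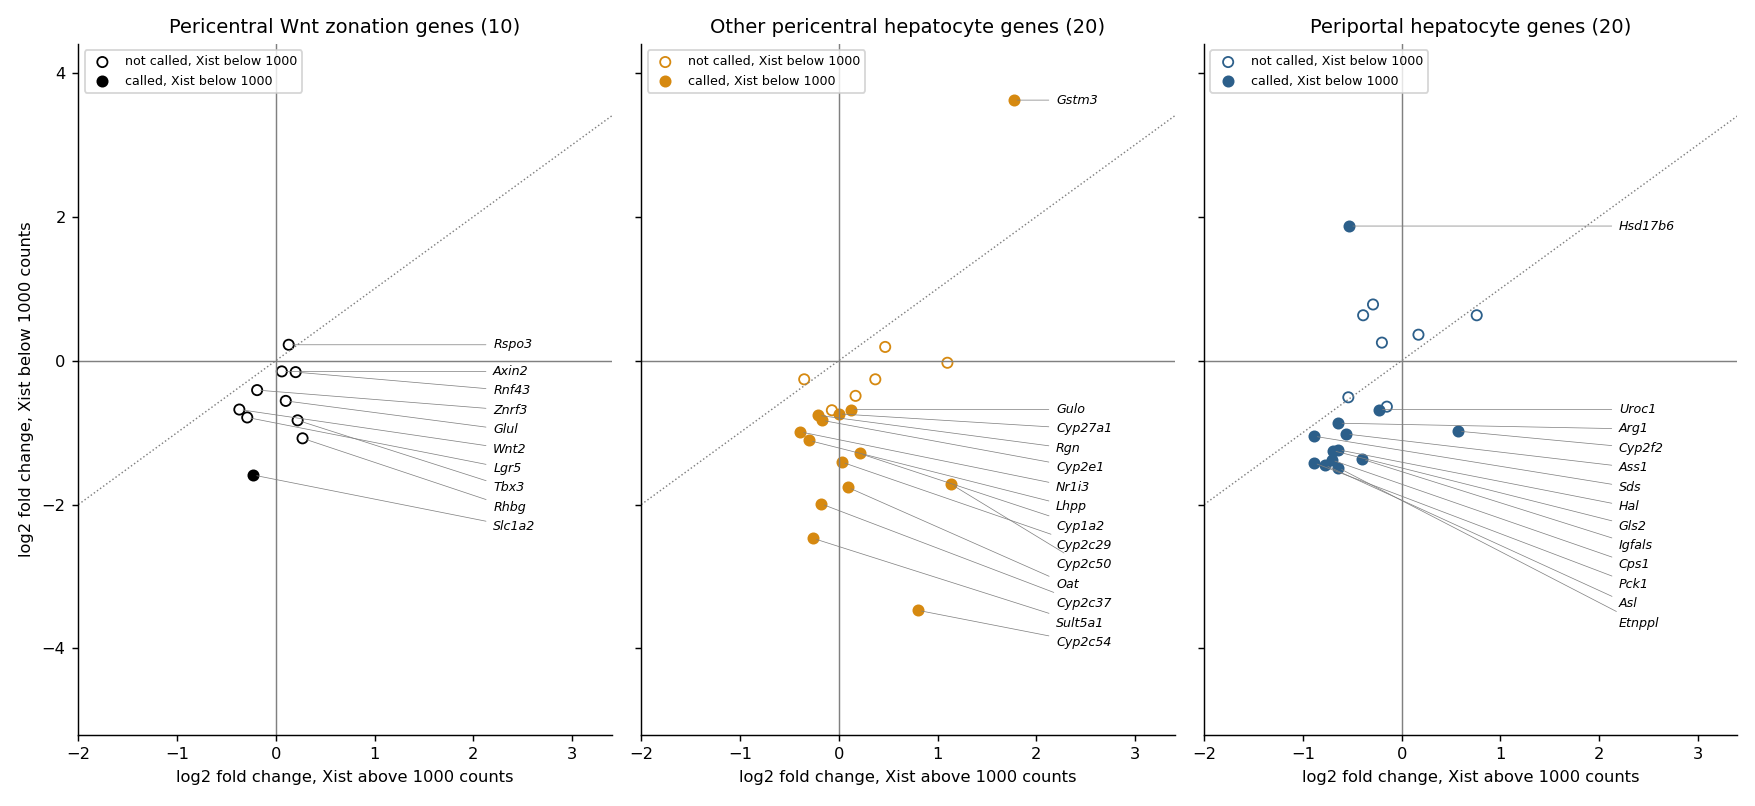
Log2 fold change, high-fat diet minus control diet, with Xist above 1000 counts (x axes) and below 1000 counts (y axes), for the 10 Wnt zonation genes, 20 other pericentral and 20 periportal hepatocyte genes. Each point is a gene, filled where called with Xist below 1000 counts, and the dotted line marks equal values. The filled pericentral genes lie between −0.39 and 1.77 on the x axis and below 0 on the y axis except Gstm3, and most filled periportal genes lie below 0 on both.

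The other genes of the pathway are given by list. Of all genes tested over the 24 libraries, 13.2% were called higher and 4.99% lower, and the counts of each list stand beside these shares. Of 23 Wnt ligands and R-spondins, Wnt2 and Rspo3 included, 13 were tested, and Wnt1, Wnt3, Wnt8a and Rspo4 had no count in any library. The called ones were higher: Wnt5a, a ligand of the noncanonical branch, rose from 1.17 ± 0.588 to 2.64 ± 1.41 CPM (SD), a log2 fold change of 1.17 ± 0.27 (SE, edgeR adjusted p = 0.00146), and Wnt7b and Wnt10a passed at control levels of 0.0868 and 0.0327 CPM, below what 3 counts give. The call of Wnt10a was lost without high-fat diet replicate 9 (adjusted p = 0.0486). The median of the 13 was 0.26.

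Of 17 tested Wnt and R-spondin receptors, Lgr5 among them, 2 were called lower and 1 higher. Lgr4, an R-spondin receptor related to Lgr5, fell from 53.8 ± 9.42 to 34.6 ± 9.01 CPM (SD), a log2 fold change of −0.64 ± 0.13 (SE, adjusted p = 0.000281), and the Frizzled receptor Fzd8 fell from 35.7 ± 8.86 to 22.3 ± 8.52 CPM, at −0.68 ± 0.18 (SE, adjusted p = 0.00392). Lgr4 was at −1.04 with Xist below 1000 counts (adjusted p = 3.37e-05) and −0.28 with Xist above (adjusted p = 0.158), and its interaction was called. Fzd2, at 0.234 CPM on the control diet, was called higher over all libraries (1.66 ± 0.47 SE), and the call was lost without high-fat diet replicate 9, 10 or 11 or control diet replicate 7, 8, 9, 11 or 12 (adjusted p up to 0.0178). The median of the 17 was −0.06.

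Secreted or membrane antagonists, Rnf43 and Znrf3 included, had 2 of 12 tested genes called higher: Frzb, a decoy that binds Wnt ligands, from 1.99 ± 1.18 to 8.22 ± 3.11 CPM (SD; log2 fold change 2.03 ± 0.26 SE, adjusted p = 3.15e-06), and Dkk3 from 2.51 ± 1.12 to 6.31 ± 3.91 CPM (1.32 ± 0.28 SE, adjusted p = 0.000569). Of 26 core components of the beta-catenin pathway, which include Axin2, 1 was called: Wls, which carries Wnt ligands to the cell surface, was higher by 0.87 ± 0.20 (SE, log2, adjusted p = 0.00104), at 1.64 with Xist below 1000 counts and 0.14 with Xist above. Among 16 tested general beta-catenin targets, 4 of which are among the 10 genes here, 3 were called higher: Cd44 (1.53 ± 0.22 SE), Tnfrsf19 (1.15 ± 0.21 SE) and Nkd2 (2.24 ± 0.54 SE, from 0.157 CPM). With Xist below and above 1000 counts, Dkk3 was at 2.18 and 0.40 and Cd44 at 2.40 and 0.88. The interaction of diet and set was called for Dkk3 and Cd44 and not for Frzb, Tnfrsf19 or Nkd2. Cd44 is also made by leukocytes and cholangiocytes, and the part of their markers, of which 7 of 12 and 5 of 7 were called higher, was not tested. The medians of the 3 lists were 0.21, −0.06 and 0.09.

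Of the endothelial markers, 2 of 10 for the central vein and 2 of 12 for the sinusoids were called, all higher, beside 13.2% of all genes tested called higher. Of 10 central vein markers, Fabp4 rose by 1.97 ± 0.34 (SE, log2, adjusted p = 6.29e-05) and Vwf by 0.90 ± 0.25 (SE, adjusted p = 0.00679), and of 12 sinusoidal markers Clec1b rose by 0.83 ± 0.18 (SE, adjusted p = 0.00061) and Stab2 by 0.57 ± 0.16 (SE, adjusted p = 0.00605). The call of Vwf was lost without high-fat diet replicate 3, 7 or 10 or control diet replicate 2, 4, 6, 8, 10 or 12 (adjusted p up to 0.0136), and that of Stab2 without high-fat diet replicate 3 or 7 or control diet replicate 4, 7 or 12 (adjusted p up to 0.0115). Without high-fat diet replicate 3 they were at 0.58 and 0.44. The list medians were 0.19 for central vein and 0.16 for sinusoidal markers. At an unadjusted p under 0.05 by edgeR, 3 central vein markers were higher and 1 lower, and 5 sinusoidal markers were higher and 2 lower. Of all genes tested, 47.8% had such a p in either direction. With Xist above 1000 counts no marker of either list was called, beside 3.8% of all genes tested. The summed sinusoidal markers overlapped, at 319.5 to 571.8 CPM in high-fat and 266.4 to 582.1 CPM in control libraries. Counted once per gene and list, the lists outside the 10 genes had 35 calls higher and 20 lower over all libraries.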

How the data were processed

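Libraries of poly(A) RNA from whole liver were sequenced and, per the submitters' processing notes, aligned with STAR 2.7.3a to mm10. The authors deposited raw read counts per Ensembl gene for 24 libraries, with no normalization, and the counts were used as deposited. The annotation behind the counts is not given in the sources used here, and symbols were matched through GENCODE M21 (51745 of 56205 IDs, with 0.0723% of counts on the 4460 others). Groups came from the sample titles. The 10 genes and the gene lists were chosen with earlier results of these data known.

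A gene was tested where 12 or more libraries held 1 count or more, with edgeR 4.0.16 (TMM, quasi-likelihood F test, Benjamini-Hochberg) in R 4.3.3, and genes were called at an adjusted p no higher than 0.01 where the log2 fold change exceeded 0.5 in size. Standard errors are the log2 fold change over the root of F. Single genes were also tested by permutation (100000 resamples, or all 924 arrangements of 6 against 6). DESeq2 1.42.0 and limma-voom (limma 3.58.1), other scalings, filters and thresholds, and fits without a library were alternatives. From each list up to 4 called genes with the largest absolute log2 fold change could be named, as could the 3 genes most like Glul, Axin2 and Rspo3. Genes named outside this rule are said to be so or belong to a count of 5 or fewer. Intervals and floors in counts cover counting error only. Nothing in the labels says which libraries came from separate cages or litters, and p-values set a difference against the spread between these libraries.

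On simulated counts with 200 genes changed 2-fold, the diet comparison recovered 95.5% and called 1 unchanged gene of 17759 genes in all, and the interaction recovered 48% and called 2 of 17745. The changed genes had a mean of at least 50 counts, and equal numbers were raised and lowered. The simulated spread came from the fit with diet and set, and no other difference between the sets was simulated. Fewer genes were changed than were called in the data, so these percentages do not carry over directly. Replicate numbers recur in both diets and were to be taken as pairs where the deviations of same-numbered libraries from the diet means correlated over 0.1 for every number. Number 9 (−0.096) did not, while the others had 0.162 to 0.578. With the library set means also removed the range was −0.277 to 0.305. Numbers were therefore not taken as pairs.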

Additional observations from a re-analysis of the deposited data

Results flagged for a closer look

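The difference in the effect of the diet on Slc1a2, the glutamate transporter, between the 2 sets of libraries was singled out because the interaction of diet and set passed the threshold. It was −1.36 ± 0.32 (SE, log2, set below minus set above 1000 Xist counts, edgeR adjusted p = 0.00695), with a log2 fold change of −1.59 in the libraries with Xist below 1000 counts and −0.23 in those above. All 6 high-fat libraries of the first set were below all 6 of its control libraries, as they were for 9.66% of all genes. The interaction was called for 4.04% of all genes tested. For Slc1a2 this call was lost in 13 of 24 fits without 1 library. It was also lost with library totals alone (edgeR adjusted p = 0.021) and with scaling to the hepatocyte markers (adjusted p = 0.035).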

How the results depend on the processing

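Over all 24 libraries the 2372 genes called higher became 3827 with library totals alone, 1226 where every library needed 10 counts, 525 with Xist above 1000 counts, 8095 when scaled to hepatocyte markers and 3709 at an adjusted p of at most 0.05. The 894 called lower became 226 with totals, 162 with Xist above and 1430 with Xist below 1000 counts, 111 with hepatocyte scaling, 3388 at an adjusted p up to 0.05 and 216 with an absolute log2 fold change over 1. In the gene lists outside the 10 genes, the 35 called higher became 23 with at least 10 counts, 11 with Xist above and 85 with hepatocyte scaling, and the 20 called lower became 8 with totals, 4 with Xist above, 38 with Xist below, 3 with hepatocyte scaling, 43 at an adjusted p up to 0.05 and 4 with a log2 fold change over 1.

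Of the 10 genes, 1 was called lower, Slc1a2, by DESeq2 (−0.77), limma-voom (−0.99), filterByExpr (−0.78), with the library set as a covariate (−0.92), at an adjusted p up to 0.05 (−0.78) and with Xist below 1000 counts (−1.59). Without 1 library the count was 0 to 1 and Slc1a2 ranged from −0.87 to −0.69. With hepatocyte scaling 3 of the 10 were called higher (Axin2 0.57, Rnf43 0.64, Rspo3 0.78), and Glul (0.35), Lgr5 (0.08), Znrf3 (0.31), Tbx3 (0.28), Rhbg (0.13) and Wnt2 (0.04) were above 0 but below the median of all genes (0.58). With totals, where that median was 0.26, Glul (0.05) and Axin2 (0.23) were above 0 and below it. Signs changed with at least 10 counts for Axin2 (0.00), with Xist above 1000 counts for Glul (0.10), Axin2 (0.06), Tbx3 (0.22) and Rhbg (0.27), and with Xist below for Rnf43 (−0.16). Without 1 library Axin2 ranged from −0.10 to 0.03 and Rnf43 from −0.03 to 0.09, Glul from −0.28 to −0.14, Lgr5 from −0.58 to −0.32, Tbx3 from −0.39 to −0.19 and Rhbg from −0.52 to −0.26.

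With hepatocyte scaling in the set with Xist above 1000 counts, 1 of the 10 was called higher (Tbx3 0.63), beside 3085 of all 18071 genes, and Slc1a2 (0.21), Lgr5 (0.14), Znrf3 (0.25) and Wnt2 (0.03) were above 0 but below the median of all genes (0.42). In the set with Xist below, 3 were called higher and 0 lower, beside 8720 and 198 of all 18122 genes, with Slc1a2 at −0.82 and with Glul (0.20), Axin2 (0.65), Lgr5 (0.01), Rnf43 (0.65), Znrf3 (0.37) and Wnt2 (0.07) above 0 but below the median of all genes (0.74). There totals gave Axin2 0.30, Rnf43 0.28 and Znrf3 0.02, with a median of all genes of 0.42.

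The 724 interactions called became 1352 with DESeq2, 1318 with totals and 493 to 1178 without 1 library (1178 without control diet replicate 11). Of the 10 genes 0 were called with totals or hepatocyte scaling and 0 to 2 without 1 library. Slc1a2 was at −1.04 with totals, −1.03 with hepatocyte scaling and −1.58 to −1.23 without 1 library, and Tbx3 at −1.21 to −0.88. Values changed sign for Axin2 (totals 0.13, hepatocyte scaling 0.17), Rnf43 (hepatocyte scaling 0.03), Znrf3 (0.11, 0.12), Wnt2 (0.06, 0.05, and 0.01 without the libraries of outermost TMM factor) and Rspo3 (−0.01 without those libraries, −0.05 to 0.18 without 1). On the control diet, the set difference changed sign for Axin2 (totals −0.13, −0.14 to 0.19 without 1 library), Rnf43 (totals −0.12, −0.14 to 0.09), Slc1a2 (totals −0.07), Lgr5 (−0.41 to 0.14 without 1 library) and Rspo3 (DESeq2 0.00, hepatocyte scaling 0.11, outermost libraries left out 0.09, −0.10 to 0.09 without 1). The correlation of Glul with Axin2 was 0.10 by rho and 0.30 without both outermost libraries, and that with Slc1a2 0.57 and 0.52. The causes were not tested.

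With the replicate number as a block, which the labels do not describe as a pairing, 2063 genes were called higher and 844 lower, and 1 of the 10 genes was called lower, Slc1a2 at −0.98 (adjusted p = 0.00699). Hepatocyte scaling, scaling within the sets and leaving out both outermost libraries were chosen after seeing the data. Genes at a few CPM, such as Lgr5, Wnt2 and Rspo3, have the least depth behind them.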
